A study of Mus musculus with 13 samples.

Results

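The set is 9 mouse genes of H3K9 methylation and methyl-DNA reading, namely Ehmt1, Ehmt2, Setdb1, Suv39h1, Suv39h2, Trim28, Mbd1, Mbd2 and Mbd3, out of 21883 protein-coding genes. They were chosen by name for their function, with earlier results of these data known, and all 9 were found in the gene table. BLIMP1, a zinc-finger transcriptional repressor encoded by Prdm1, was mapped by ChIP-seq in mouse cells, with an antibody to GFP. Every group carried the same homozygous knock-in, in which EGFP is fused to the N terminus of BLIMP1, on a C57BL/6 background, so no group lacked the tag. Each of the 12 ChIP libraries has its own list of peak summits, a summit being the single base given for a peak.

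The germ-lineage groups were d2 PGCLC, d6 PGCLC and E12.5 PGC. PGCLC are primordial germ cell-like cells, made in culture from knock-in embryonic stem cells by way of epiblast-like cells. The d2 PGCLC were sorted for KIT after culture with LIF and 500 ng/mL BMP4. The d6 PGCLC were sorted for SSEA1 and integrin beta-3 after culture with LIF, BMP4 (for which the labels give no separate dose), 500 ng/mL BMP8a, 100 ng/mL SCF and 50 ng/mL EGF. E12.5 PGC are germ cells of the embryo, sorted for SSEA1 from gonads of embryos obtained by sperm injection and transfer, with 1 male and 1 female library. The somatic groups were intestinal epithelium at E16.5 (sorted for GFP and EPCAM), photoreceptor precursors of the retina at postnatal day 4 (sorted for GFP), and plasmablasts, which are activated B cells at the start of antibody secretion. Plasmablasts were cultured for 3 days with 2 ng/mL IL-4 and 10 ng/mL LPS and sorted for GFP and CD138. Each cell type has 2 libraries. The labels do not say whether they came from separate cultures or animals, and their spread may be technical. The p-values given compare cell types, each as the mean of its libraries, and measure the spread between cell types. The germ-lineage types are related stages of one lineage, whereas the somatic types are separate tissues. The test treats all of them as independent. Cell identity cannot be checked in lists of binding positions, and was not.

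Methylation of lysine 9 of histone H3 marks repressed chromatin. In mouse, EHMT1 and EHMT2 (GLP and G9a) act as a heterodimer that places mono- and dimethylation. SETDB1, SUV39H1 and SUV39H2 place trimethylation, and TRIM28 (KAP1) brings SETDB1 to targets of KRAB zinc-finger proteins. MBD1 and MBD2 bind methylated CpG, whereas mammalian MBD3 does so poorly and is a subunit of the NuRD deacetylase complex. Mouse PGC lose H3K9 dimethylation and much of their DNA methylation as they develop.

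The 250 bases before the annotated start are printed for the 4 members whose 300-base promoter window holds a summit of any library. The window takes 250 bases before the start and the rest after it. It was picked by such summits, not by bound regions. The sequences are from RefSeq (GRCm38.p6) and run 5′ to 3′ on the gene's strand, and capitals mark GAAAG or, on the opposite strand, CTTTC, the core letters of the BLIMP1 motif.
Ehmt1 chr2:24919610-24919859 minus strand: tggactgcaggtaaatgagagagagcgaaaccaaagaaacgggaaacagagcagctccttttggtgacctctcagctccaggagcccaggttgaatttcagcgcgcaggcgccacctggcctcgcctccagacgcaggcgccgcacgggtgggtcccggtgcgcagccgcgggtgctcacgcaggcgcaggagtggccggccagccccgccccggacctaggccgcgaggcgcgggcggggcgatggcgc
Setdb1 chr3:95357203-95357452 minus strand: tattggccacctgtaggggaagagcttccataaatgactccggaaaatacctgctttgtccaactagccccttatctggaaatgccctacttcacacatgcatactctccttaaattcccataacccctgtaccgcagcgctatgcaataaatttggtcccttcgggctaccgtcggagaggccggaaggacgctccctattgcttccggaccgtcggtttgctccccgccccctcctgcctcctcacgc
Trim28 chr7:13023902-13024151 plus strand: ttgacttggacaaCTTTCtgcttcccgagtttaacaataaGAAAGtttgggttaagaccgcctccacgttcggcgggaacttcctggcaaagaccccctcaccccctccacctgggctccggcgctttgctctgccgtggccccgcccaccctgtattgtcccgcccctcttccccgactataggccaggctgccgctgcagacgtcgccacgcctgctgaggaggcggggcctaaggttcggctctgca
Mbd3 chr10:80399532-80399781 minus strand: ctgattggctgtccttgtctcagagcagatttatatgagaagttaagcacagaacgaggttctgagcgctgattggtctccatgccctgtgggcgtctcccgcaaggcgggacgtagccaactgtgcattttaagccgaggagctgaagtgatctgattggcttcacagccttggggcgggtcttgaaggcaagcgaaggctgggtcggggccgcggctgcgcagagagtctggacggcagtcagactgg

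In these letters Trim28 has GAAAG on both strands, starting 237 and 210 bases before the start, and the other 3 sequences have none. The table held 9 promoters of 7 members, and 2 had GAAAG, the other being the second promoter of Suv39h1, with its match 206 bases before the start. GAAAG was present on either strand in 51.5% of 32851 mouse promoters of this length, GTGAAAG in 3.57% and AGTGAAAG in 1.09%. Each longer motif contains the shorter, and neither longer motif was present in the 9 member promoters. The Setdb1 window holds the summits of both plasmablast libraries and of intestinal epithelium replicate 2. The Mbd3 window holds those of intestinal epithelium replicate 2 and plasmablast replicate 2, the Trim28 window that of d2 PGCLC replicate 2, and the Ehmt1 window that of plasmablast replicate 2. These Trim28 and Ehmt1 summits lie in no bound region. The bound plasmablast summits nearest the start lie outside the printed bases, 446 and 465 bp downstream for Ehmt1 and 852 and 862 bp upstream for Trim28. Those of Suv39h2, 252 and 369 bp upstream, are beyond its window. Only for Setdb1 do the printed letters cover the bound summits of both plasmablast libraries. Promoters of Mbd1 and Mbd2 are not printed.

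The lists ranged from 7998 summits (intestinal epithelium replicate 1) to 76185 (d6 PGCLC replicate 1), a 9.53-fold range. The d6 PGCLC replicate 2 list held 15411, whereas the plasmablast lists held 40750 and 45122. List length cannot be told apart from sequencing depth or calling threshold, since neither is given in the sources used here. Summits lying no more than 200 bp apart were joined into 1 region. A region counted as bound in a cell type if each of the 2 libraries had a summit there. By this rule d2 PGCLC had 11947 bound regions, d6 PGCLC 11379 and E12.5 PGC 7666, against 4956 for intestinal epithelium, 7868 for photoreceptor precursors and 23218 for plasmablasts.

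Close to the ends of the members, BLIMP1 was bound in plasmablasts and rarely elsewhere. A bound region lay within 1 kb of a gene end of 1 of the 9 members in d2 PGCLC (Trim28), beside 8.21% of all protein-coding genes. It lay there for 0 members in d6 PGCLC, beside 8.76% of all genes, and for 0 in E12.5 PGC, beside 5.65%. In intestinal epithelium the count was 1 (Mbd1), beside 6.82%, and in photoreceptor precursors 1 (Ehmt1), beside 9.27%. In plasmablasts it was 7 (77.8%), beside 33.6% of all genes, with Ehmt2 and Suv39h1 the exceptions. The members were chosen with earlier results of these data known, so this contrast was not tested. In the 5 cell types other than plasmablasts the counts are thus 0 or 1, where the share of all genes is between 5.65% and 9.27%. In the median, a member was bound in 1 cell type, against 0 for all genes, and 22.2% of members and 61.0% of all genes were bound in none. With 1 library alone defining its cell type, d6 PGCLC replicate 1 gave 5 members, d2 PGCLC replicate 2 gave 2, and the female E12.5 PGC library gave 1. Intestinal epithelium replicate 1 alone gave 2 and replicate 2 alone gave 3.

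**Figure D1:**
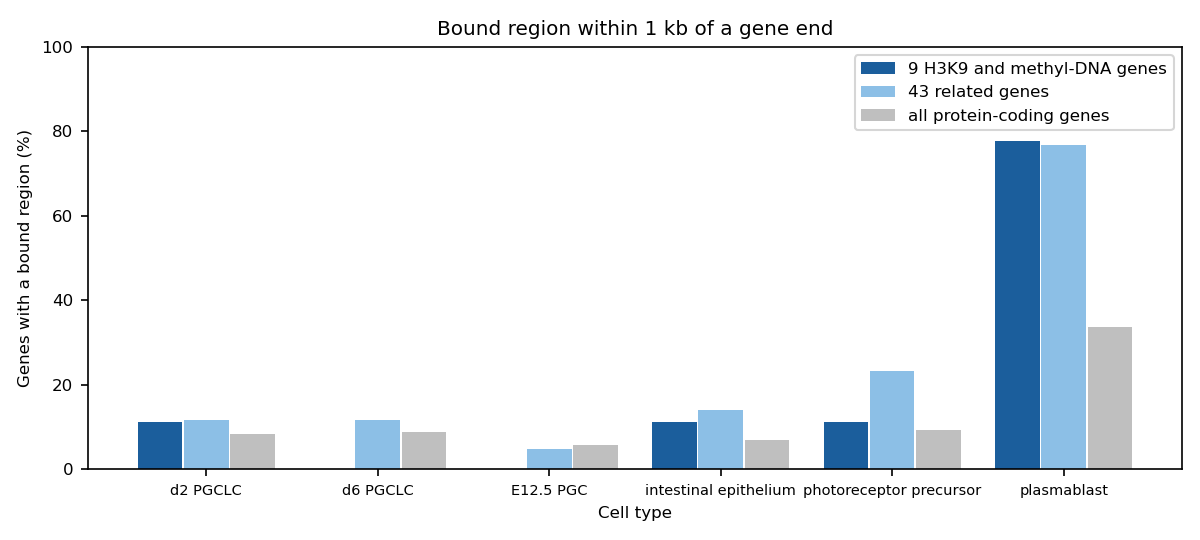
Percentage of genes with a bound BLIMP1 region within 1 kb of a gene end (vertical axis) in each of the 6 cell types (horizontal axis), as bars for the 9 members, for 43 related genes and for all 21883 protein-coding genes. The plasmablast bar of the members stands at 77.8%, against 33.6% for all genes, and no other member bar passes 11.1%.

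Wider windows raised the counts in germ-lineage and somatic types, except E12.5 PGC at 5 kb, and raised the shares of all genes as well. Within 5 kb of an end, 3 members were bound in d2 PGCLC (Setdb1, Trim28, Mbd2), beside 16.8% of all genes, 2 in d6 PGCLC (Ehmt2, Mbd2), beside 17.6%, and 0 in E12.5 PGC, beside 11.4%. The counts were 2 in intestinal epithelium (Mbd1, Mbd2), beside 11.6%, 2 in photoreceptor precursors (Ehmt1, Ehmt2), beside 14.5%, and 8 in plasmablasts (all but Suv39h1), beside 44.5%. Inside the genes themselves, 2 members were bound in d2 PGCLC (Ehmt1, Setdb1), beside 18.9% of all genes, and only Ehmt1 in d6 PGCLC, beside 19.1%, and in E12.5 PGC, beside 13.7%. Among somatic types, 1 member was bound inside in intestinal epithelium (Mbd1), beside 10.7%, 1 in photoreceptor precursors (Ehmt1), beside 14.5%, and 4 in plasmablasts (Ehmt1, Trim28, Mbd1, Mbd2), beside 36.3%.

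In the gene or within 50 kb, d2 PGCLC had 6 bound members, beside 53.5% of all genes, d6 PGCLC had 5, beside 53.5%, and E12.5 PGC had 4, beside 42.2%. The counts were 4 in intestinal epithelium, beside 35.8%, 6 in photoreceptor precursors, beside 41.7%, and 8 in plasmablasts, beside 70.0%. At this distance the member shares run from 44.4% to 88.9%, and those of all genes from 35.8% to 70.0%. Most such regions are nearer to a neighbour. Of 157 regions there, 43 were bound in some cell type, and 12 of those had a member as the nearest protein-coding gene.

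Ehmt1, the dimethyltransferase subunit GLP, carries the one region in the set that all germ-lineage libraries share and no somatic library has. The gene lies at chr2:24790769-24919643 on the minus strand. The region at chr2:24912266-24912323 is inside the gene, 7310 bp downstream of the annotated start. Its summits were at 24912323 and 24912266 in d2 PGCLC, 24912303 and 24912305 in d6 PGCLC, and 24912289 (male) and 24912296 (female) in E12.5 PGC. The 6 summits span 57 bp, and none of the 6 somatic libraries has one there. It is 1 of 1624 regions in the genome with this pattern, whose median width is 114 bp, and 13.3% of them are as narrow. Such a region lies inside 3.16% of all protein-coding genes and inside 15.6% of those of at least 100 kb. Ehmt1 is 128875 bp long, longer than most genes. The other 8 members have no such region inside or within 50 kb, where 10.1% of all genes have one.

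Closer to the start, Ehmt1 was bound in photoreceptor precursors and plasmablasts. The region at chr2:24919000-24919163, about 605 bp downstream of the start, has summits at 24919003 and 24919004 in photoreceptor precursors and at 24919163 and 24919144 in plasmablasts. The only germ-lineage summit in it is that of d6 PGCLC replicate 1, at 24919000. A further intragenic region at chr2:24910675-24910690, 8927 bp downstream of the start, has summits of both d2 PGCLC libraries and of d6 PGCLC replicate 1, and was bound in d2 PGCLC. Beyond the start, intestinal epithelium and plasmablasts shared a bound region at chr2:24935454-24935844, which is 264 bp from an end of Arrdc1 and much nearer to that gene.

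**Figure D2:**
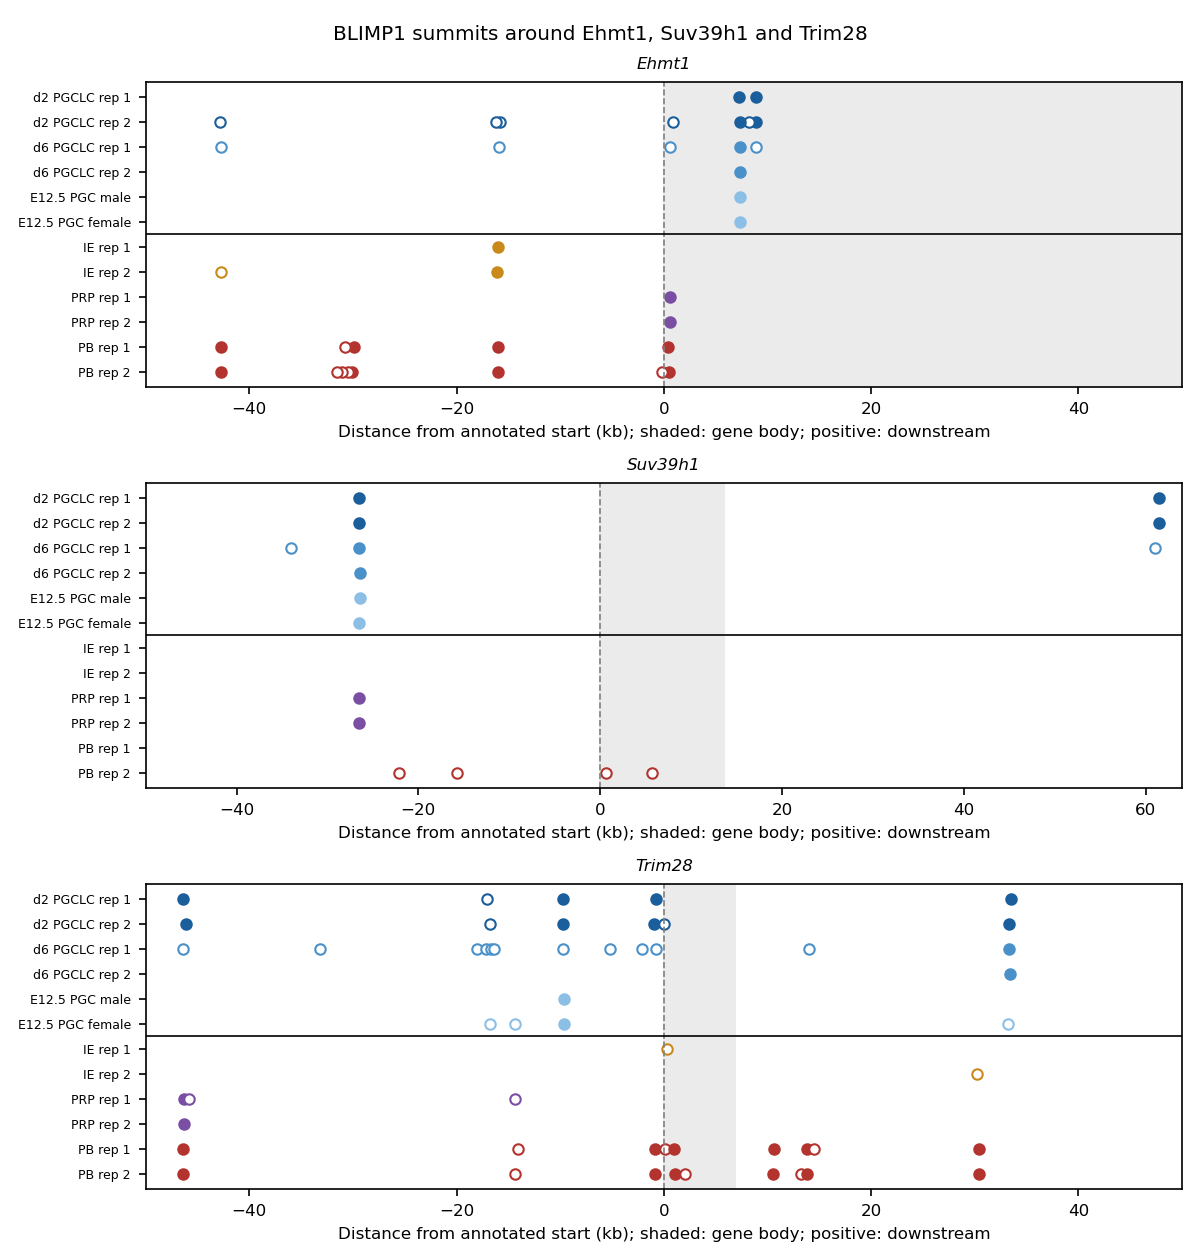
Summits around Ehmt1, Suv39h1 and Trim28 by distance from the annotated start in kb (horizontal axis), with 1 row per library, germ-lineage libraries above the line and the gene body shaded. Filled symbols lie in a region that both libraries of the cell type share and open symbols do not. The 6 germ-lineage rows of Ehmt1 align 7310 bp downstream of the start with no somatic symbol, and those of Suv39h1 align 26492 bp upstream together with both photoreceptor precursor rows. Part of the Ehmt1 gene body lies beyond the plotted range.

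Ehmt2, the partner subunit G9a, had no bound region inside the gene or within 1 kb of its ends in any cell type. It lies at chr17:34898463-34914073 on the plus strand, among closely packed genes. The nearest bound region, chr17:34893909-34894143, is 4478 bp from the gene's lower-coordinate end, on the upstream side, and 574 bp from Zbtb12. It was bound in d6 PGCLC, photoreceptor precursors and plasmablasts, with single-library summits of d2 PGCLC replicate 2 and intestinal epithelium replicate 2. The single summits at the gene itself, at 34898137, 34899650, 34911803, 34912664 and 34913677, are all from plasmablast libraries and fall in no shared region. E12.5 PGC were bound at chr17:34879575-34879683, close to C2, and plasmablasts there as well. On the other side of the gene, a region at chr17:34959842-34960162 near Hspa1b was bound in d2 PGCLC, d6 PGCLC and plasmablasts, with single summits of the female E12.5 PGC library and intestinal epithelium replicate 1.

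Setdb1, the histone methyltransferase that works with TRIM28, was bound at opposite ends in d2 PGCLC and plasmablasts. It lies at chr3:95323525-95357202 on the minus strand. The d2 PGCLC region, chr3:95324823-95324929, is 1340 bp inside the gene from its 3′ end and 1266 bp from Cers2. Its summits were at 95324823 and 95324864 in d2 PGCLC, with d6 PGCLC replicate 1 at 95324867 and plasmablast replicate 1 at 95324929. Plasmablasts were bound just before the start, at 95357232 and 95357330, which are 30 and 128 bp upstream in the printed sequence. Intestinal epithelium replicate 2 alone had a summit between them, at 95357316, and no germ-lineage library had one there.

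Within 50 kb, photoreceptor precursors were the only cell type in which both Suv39h genes had a bound region, that of Suv39h2 lying nearest to Hspa14. Suv39h1, at chrX:8061171-8074760 on the minus strand, was the member with no bound region in plasmablasts within 50 kb. Its region at chrX:8101178-8101272, 26492 bp upstream, has summits of all 6 germ-lineage libraries and both photoreceptor precursor libraries, and none of intestinal epithelium or plasmablasts. The nearest gene end is that of Was, 10761 bp away, and 102 regions in the genome show this combination. Plasmablast replicate 2 had 4 summits in the window and plasmablast replicate 1 had 0. A region bound in d2 PGCLC lay on the other side, at chrX:8013286-8013306, nearest to Glod5. Suv39h2, at chr2:3455815-3474986 on the minus strand, was bound in plasmablasts, with summits at 3475238 and 3475355, 252 and 369 bp upstream of the start. Germ-lineage summits near this start came from single libraries, d6 PGCLC replicate 1 at 3475360 and 3475626 and the female E12.5 PGC library at 3474923.

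Trim28, the KRAB zinc-finger corepressor, was the member bound within 1 kb of an end in a germ-lineage type. It lies at chr7:13024152-13031032 on the plus strand. The region at chr7:13023214-13023425 has summits at 13023425 and 13023214 in d2 PGCLC, 727 and 938 bp upstream of the start, and at 13023290 and 13023300 in plasmablasts. The d2 PGCLC summits are 211 bp apart, over the 200 bp limit, and are joined through the plasmablast and d6 PGCLC replicate 1 summits between them. In d6 PGCLC, replicate 1 had a summit there, at 13023376, and replicate 2 did not. The region is 408 bp from an end of Gm31649, which is nearer than Trim28. Plasmablasts were also bound inside the gene, at 13025146 and 13025249, where no germ-lineage library has a summit. Farther upstream, 9686 bp before the start, the region chr7:13014425-13014541 has summits of both d2 PGCLC libraries, d6 PGCLC replicate 1 and both E12.5 PGC libraries, and of no somatic library. Zbtb45 is its nearest gene. A region at chr7:13057350-13057628, nearest to Mzf1, was bound in d2 PGCLC and d6 PGCLC, with a summit of the female E12.5 PGC library and none of a somatic library. Shared with somatic types was chr7:12977747-12978010, 46360 bp upstream and nearest to Zfp446. It was bound in d2 PGCLC, photoreceptor precursors and plasmablasts, with a summit of d6 PGCLC replicate 1.

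**Figure D3:**
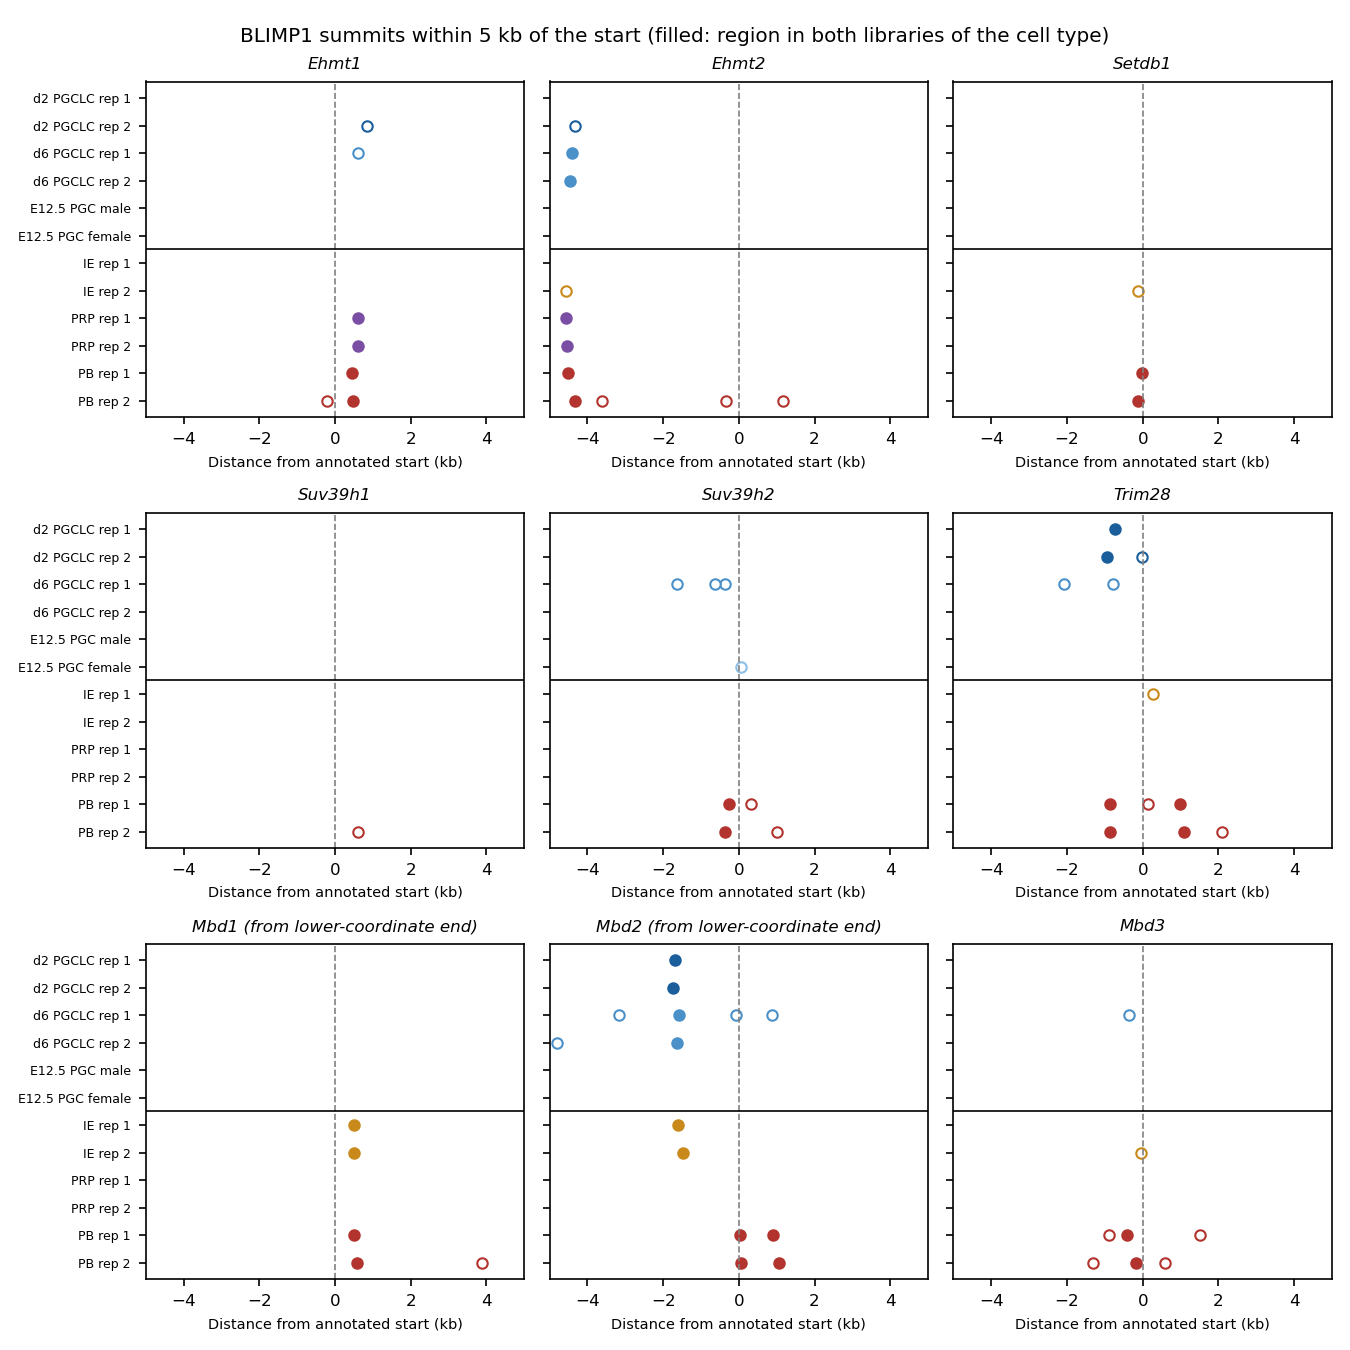
Summits within 5 kb of the annotated start of each of the 9 members (for Mbd1 and Mbd2, of the lower-coordinate gene end), by distance in kb (horizontal axis), with 1 row per library and germ-lineage libraries above the line. Filled symbols lie in a region that both libraries of the cell type share and open symbols do not. Filled plasmablast symbols stand within 1 kb of the mark in 7 panels, with Ehmt2 and Suv39h1 the exceptions.

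None of the 3 readers was bound inside the gene in a germ-lineage type. The shares of all genes bound inside are 18.9% for d2 PGCLC, 19.1% for d6 PGCLC and 13.7% for E12.5 PGC. None was bound within 1 kb of an end either, where the shares are 8.21%, 8.76% and 5.65% in the same order. With shares this low, 3 genes are too few to set the readers apart from other genes. Beyond 1 kb, Mbd2 had a region bound in d2 PGCLC and d6 PGCLC, 1628 bp outside its lower-coordinate end. Mbd1, at chr18:74267605-74282737, was bound at chr18:74268099-74268200, 512 bp inside the lower-coordinate end, with summits at 74268116 and 74268118 in intestinal epithelium and 74268099 and 74268200 in plasmablasts. No germ-lineage or photoreceptor precursor library has a summit in it, a combination held by 120 regions. The only germ-lineage summit of the Mbd1 window was that of d6 PGCLC replicate 1 near Cxxc1, at 74218420.

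Mbd2, at chr18:70568225-70629134, had neighbouring regions bound in different cell types. The outer one, chr18:70566482-70566746, 1628 bp outside the lower-coordinate end, had summits at 70566537 and 70566482 in d2 PGCLC, 70566634 and 70566582 in d6 PGCLC, and 70566612 and 70566746 in intestinal epithelium. No library of E12.5 PGC, photoreceptor precursors or plasmablasts had one. The region at the end itself, chr18:70568151-70568278, was bound in plasmablasts, at 70568245 and 70568278, with d6 PGCLC replicate 1 alone among the others at 70568151.

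Mbd3, the NuRD subunit, lies at chr10:80392539-80399531 on the minus strand. Its start region was bound in plasmablasts, with summits at 80399945 and 80399716, 414 and 185 bp upstream. Single summits of d6 PGCLC replicate 1, at 80399882, and intestinal epithelium replicate 2, at 80399587, fall in the same region. These plasmablast summits are 229 bp apart and are joined through the d6 PGCLC replicate 1 summit between them. A region at chr10:80433832-80434043, near Tcf3, was bound in photoreceptor precursors and plasmablasts.

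Summits in the gene or within 50 kb were most numerous in the longer lists, those of d6 PGCLC replicate 1 and plasmablasts, for most members. For Ehmt1 the d2 PGCLC libraries had 2 and 7, those of d6 PGCLC 7 and 1, and those of E12.5 PGC 1 and 1, against 1 and 2 for intestinal epithelium, 1 and 1 for photoreceptor precursors and 7 and 9 for plasmablasts. For Trim28 the d2 PGCLC libraries had 5 and 6, those of d6 PGCLC 12 and 1, and those of E12.5 PGC 1 and 4, against 1 and 1 for intestinal epithelium, 3 and 1 for photoreceptor precursors and 9 and 9 for plasmablasts. For Mbd3 the d2 PGCLC libraries had 0 and 0, those of d6 PGCLC 3 and 0, and those of E12.5 PGC 0 and 0, against 0 and 2 for intestinal epithelium, 1 and 1 for photoreceptor precursors and 10 and 14 for plasmablasts. The other 6 members had between 0 and 11 summits in a germ-lineage library and between 0 and 14 in a somatic one. Within d6 PGCLC, replicate 1 had the higher number for every member. Of the 157 regions at members, 102 came from 1 library, of which 27 were from d6 PGCLC replicate 1, 26 from plasmablast replicate 1 and 41 from plasmablast replicate 2.

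**Figure D4:**
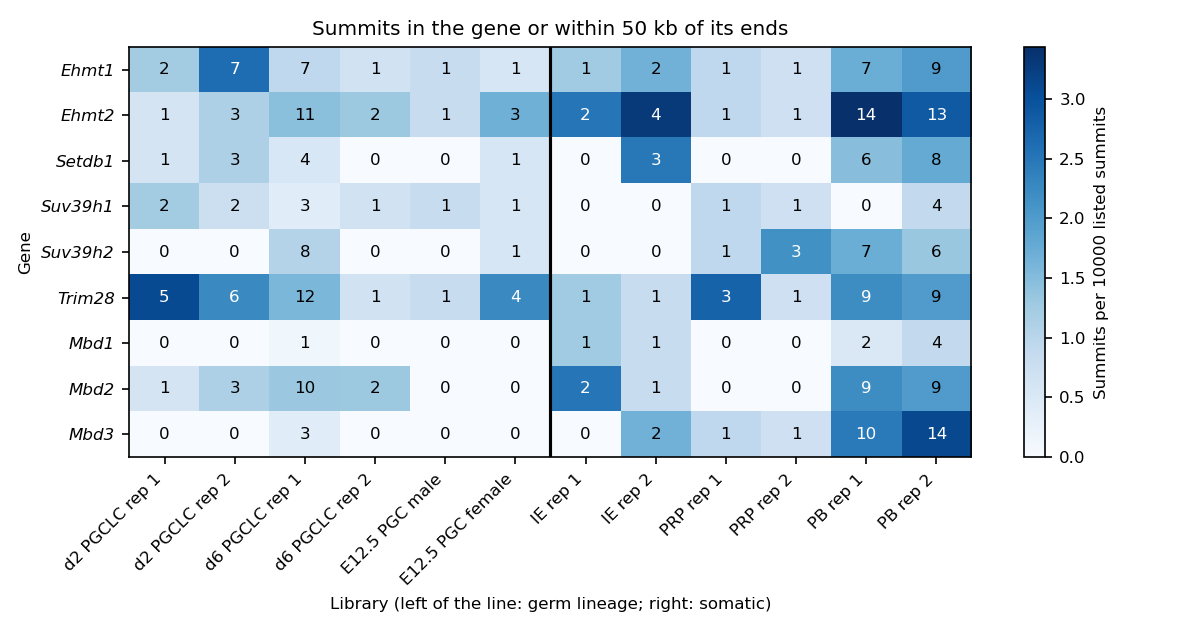
Number of summits in each member or within 50 kb of its ends (rows) in each of the 12 libraries (columns, germ-lineage libraries on the left). Printed numbers are summits and the colour is summits per 10000 listed in that library. Mbd3 and Mbd1 hold germ-lineage summits in d6 PGCLC replicate 1 alone.

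To compare the lineages, summits were expressed per 10000 listed in the library, averaged within each cell type, and tested by an exact two-sided permutation test over cell types (n = 3 and 3, smallest possible p 0.1), with Benjamini-Hochberg adjustment over 21883 genes. Mbd3 stood at 0 in d2 PGCLC, at 0.197 for d6 PGCLC and at 0 for E12.5 PGC, against 0.825 for intestinal epithelium, 0.819 for photoreceptor precursors and 2.78 for plasmablasts. The groups do not overlap, with means of 0.0656 ± 0.114 in the germ lineage and 1.47 ± 1.13 in somatic types (SD, n = 3 each; difference -1.41; exact permutation p = 0.1, adjusted p = 0.554). It was the only member without overlap, on the side where 10.5% of all genes lie; 7.54% lie on the other side, with no member. With intestinal epithelium replicate 2 left out, the count of members without overlap was 0. The photoreceptor precursor summits counted for Mbd3 lie in the region near Tcf3, 34457 bp upstream of the Mbd3 start. With the gene and 5 kb on either side, Mbd3 overlapped and Ehmt2 did not.

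For the other 8 members the cell types overlapped, with exact permutation p between 0.4 and 0.9 and adjusted p of 0.871 or 1. Trim28 averaged 1.77 ± 0.804 in the germ lineage and 1.63 ± 0.541 in somatic types, and Suv39h1 0.733 ± 0.238 and 0.421 ± 0.410 in the same order (SD, n = 3 each). These were the 2 members with a higher germ-lineage mean. Ehmt2 averaged 1.16 ± 0.261 in the germ lineage and 2.29 ± 1.28 in somatic types, and Ehmt1 1.13 ± 0.691 and 1.38 ± 0.523. The means were 0.471 ± 0.346 in the germ lineage and 0.954 ± 0.848 in somatic types for Setdb1, and 0.269 ± 0.263 and 1.02 ± 0.883 for Suv39h2. They were 0.0219 ± 0.0379 in the germ lineage and 0.576 ± 0.528 in somatic types for Mbd1, and 0.725 ± 0.665 and 1.26 ± 1.11 for Mbd2. The median difference was -0.530 for the members and -0.0632 for all genes. Over all genes, 3948 were at the smallest p the permutation allows, and none passed the adjustment.

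**Figure D5:**
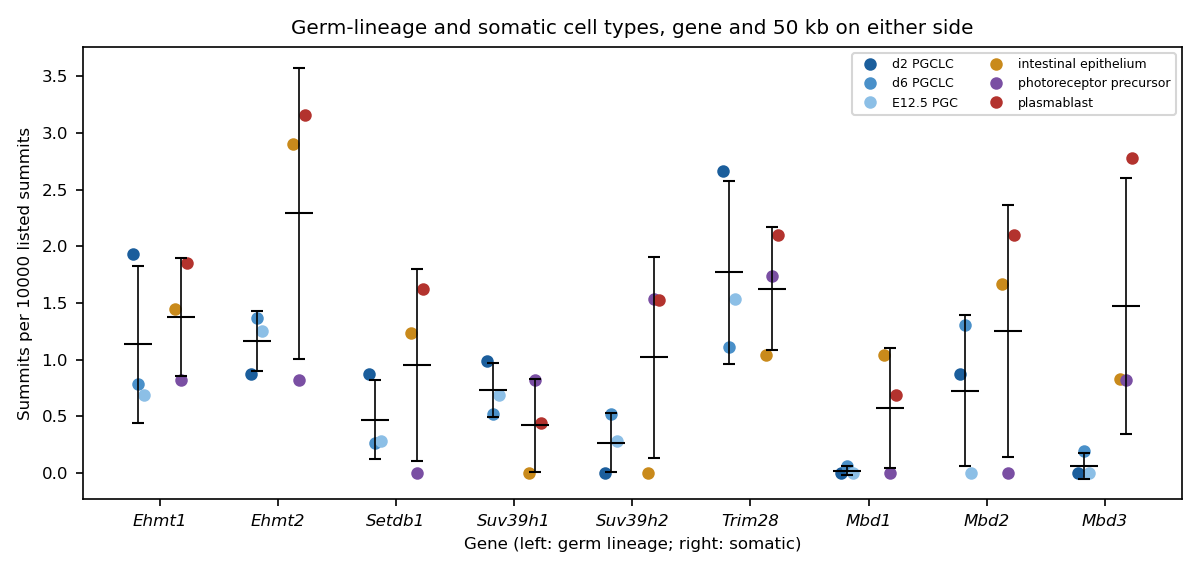
Summits per 10000 listed, in the gene or within 50 kb (vertical axis), for each member (horizontal axis), with germ-lineage cell types left of somatic ones. Points are cell types (mean of 2 libraries) and bars the mean ± SD of 3 cell types. Only for Mbd3 do the points not overlap, at 0 to 0.197 in the germ lineage and 0.819 to 2.78 in somatic types.

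In the germ lineage, most bound regions lay more than 1 kb from the end of any protein-coding gene, at the members as over all regions. Within 1 kb of one were 2 of 11 regions of d2 PGCLC (18.2%), 2 of 6 of d6 PGCLC (33.3%) and 0 of 4 of E12.5 PGC. In somatic types it was 3 of 4 for intestinal epithelium (75.0%), 3 of 6 for photoreceptor precursors (50.0%) and 23 of 33 for plasmablasts (69.7%). The share of all bound regions was 13.5% for d2 PGCLC, 14.9% for d6 PGCLC and 14.3% for E12.5 PGC, against 26.3% for intestinal epithelium, 23.3% for photoreceptor precursors and 31.5% for plasmablasts. The member regions were taken from windows around genes, whereas all regions include those far from genes. A higher share at members is thus partly set by that choice. Many of these ends are those of neighbours, as 12 of the 43 bound regions had a member as the nearest gene. Of the 11 regions bound in d2 PGCLC, 5 were bound in d6 PGCLC too (45.5%, against 63.8% of all such regions), and another 5 had a summit of d6 PGCLC replicate 1 alone (45.5%, against 25.0%). Of the 13 bound in a germ-lineage type, 5 had no somatic summit (38.5%, against 55.4% of all such regions). Of the 37 bound in a somatic type, 17 had no germ-lineage summit (45.9%, against 58.9%).

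Related genes were also bound most often in plasmablasts. Their list, like that of the members, was chosen with earlier results of these data known and was not tested. Of 43 other genes of H3K9 methylation and demethylation, methyl-DNA reading and NuRD, d2 PGCLC had 5 bound within 1 kb of an end (11.6%, beside 8.21% of all genes), d6 PGCLC had 5 (11.6%, beside 8.76%) and E12.5 PGC had 2 (4.65%, beside 5.65%). Intestinal epithelium had 6 (14.0%, beside 6.82%), photoreceptor precursors 10 (23.3%, beside 9.27%) and plasmablasts 33 (76.7%, beside 33.6%). The plasmablast count was 11 of 14 for H3K9 methylation genes, 7 of 9 for demethylases, 7 of 9 for other readers and 8 of 11 for NuRD partners of MBD2 and MBD3. Kdm3a, an H3K9 demethylase, was bound in all 6 cell types. Prdm16 was bound in 5, all but plasmablasts. Chd4, the NuRD remodeller, was bound in d2 PGCLC, d6 PGCLC, photoreceptor precursors and plasmablasts. Uhrf1, which reads hemimethylated DNA, was bound in d2 PGCLC, intestinal epithelium and plasmablasts, whereas Mbd5 and Rbbp4 were bound in the 3 somatic types. The 8 bound in none were Tasor, Mecom, Kdm7a, Mbd6, Zbtb38, Mta1, Gatad2a and Rbbp7.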

How the data were processed

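BLIMP1 summit lists of 12 ChIP-seq libraries were used; an input library was left aside. For the authors' processing, the submitters' processing notes name MACS2 2.1, Bowtie 1.1.2, Trim Galore 0.3.7, cutadapt 1.7.1 and the build mm10. The deposited lists give, per library, a chromosome and a summit position, in bp, and no height, score or p-value. The sources used here do not give read depth, the calling threshold, the control or whether counting starts at 0 or 1, and printed positions may be off by 1 bp.

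Groups came from the labels, with male and female E12.5 PGC taken as the 2 libraries of one cell type. Chromosomes 1 to 19, X and Y were used. No list copied another (at most 244 identical positions between 2 libraries). Summits at most 200 bp apart were merged by single linkage. Genes came from a RefSeq table of GRCm38.p6, which shares the coordinates of mm10; promoters, strands and starts came from the matching RefSeq promoter table, which held 7 members. A gene was called bound within 1 kb, within 5 kb, in the gene, or in the gene and 50 kb when a summit in a bound region lay there. The members and lists were chosen with earlier results of these data known, so no list was tested. The named genes are the 9 members and, of the related genes, the up to 6 bound in the most cell types and those bound in none. The permutation test and the call for groups that do not overlap were tested on simulated data, and the bound calls were not. Python 3.11.15, numpy 2.4.6 and pandas 2.3.3 were used. Alternatives were other merging distances, windows, rules for bound, scalings and leaving out each library.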

Additional observations from a re-analysis of the deposited data

Results flagged for a closer look

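Of 18 groups of values tested (9 members, 2 lineages), 3 had a library far from the others by Dixon's criterion, all among the 6 germ-lineage libraries. The criterion is made for continuous values. Its chance rate is not known for these low counts, many of them tied at 0. All are summits per 10000 listed, in the gene or within 50 kb. For Ehmt1, d2 PGCLC replicate 2 had 2.63 and the next library 1.23. For Mbd1, d6 PGCLC replicate 1 had 0.131 and the others 0. For Mbd3, d6 PGCLC replicate 1 had 0.394 and the others 0. With the others at 0 any summit meets the criterion, and the Mbd1 value is 1 summit. The d6 PGCLC replicate 1 list is the longest, with 76185 summits, and its part in these values was not tested.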

How the results depend on the processing

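Counts of bound members moved mainly with the rule for a bound region and the window. Within 1 kb, a summit of either library gave 2 for d2 PGCLC, 5 for d6 PGCLC and 1 for E12.5 PGC, and 4 for intestinal epithelium. A 2 kb window gave 3 for d2 PGCLC, 1 for d6 PGCLC and 2 for intestinal epithelium, a 5 kb window 3, 2 and 2 in the same types and 2 in photoreceptor precursors, and starts alone (7 members) 0 in intestinal epithelium. Merging at 100 bp gave 5 in plasmablasts within 1 kb. In the gene or within 50 kb, counting only regions nearest to the member gave 2 for d2 PGCLC, 2 for d6 PGCLC and 1 for E12.5 PGC, 2 for intestinal epithelium and 1 for photoreceptor precursors. There a summit of either library gave 9 in d6 PGCLC and 7 in intestinal epithelium, a 20 kb window 3 in d6 PGCLC and 2 in photoreceptor precursors, and merging at 100 bp 2 in intestinal epithelium.

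With each library left out in turn, the other alone defining the cell type, the counts within 1 kb ranged from 1 to 2 for d2 PGCLC, 0 to 5 for d6 PGCLC and 0 to 1 for E12.5 PGC, and from 2 to 3 for intestinal epithelium, 1 to 1 for photoreceptor precursors and 8 to 9 for plasmablasts. Within 50 kb they ranged from 6 to 6, 5 to 9, 4 to 6, 5 to 7, 6 to 6 and 8 to 9 in the same order. The 5 and 9 in d6 PGCLC came without replicate 2, and the 7 in intestinal epithelium came without replicate 1.

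The cell types did not overlap for 1 member, Mbd3 (0 to 1 with a library left out, and 0 without intestinal epithelium replicate 2), but for 0 members without scaling, per 10000 bound regions, with libraries as units or with the replicate block. With the gene and 5 kb on either side the count was also 1. That member was Ehmt2 (difference -0.529, exact permutation p = 0.1), and Mbd3 overlapped. The germ-lineage, intestinal epithelium and photoreceptor precursor summits counted there for Ehmt2 all lie in the region 574 bp from Zbtb12. For intestinal epithelium this was a single summit, of replicate 2, and the region itself was bound in d6 PGCLC. Members standing apart on the higher side numbered 0 to 0. Same-numbered libraries did not deviate together (correlation from -0.284 to 0.0553 over 10 pairs). This cannot show whether the numbers pair libraries, since libraries handled together need not deviate together. E12.5 PGC were left out of the block. Of 162 alternative differences for single members, 154 kept direction without passing the threshold, 7 reversed and 1 passed it. That 1 was Mbd3 with libraries as units (exact permutation p = 0.0152, not adjusted, with libraries sharing cell types). With cell types as units the smallest possible p is 0.1, over the threshold. Only the settings with libraries as units or the replicate block could therefore pass it. With a 5 kb window the difference was 0.474 for Ehmt1, -0.0739 for Suv39h1, 0.0036 for Suv39h2 and -0.248 for Trim28. Trim28 ranged from -0.198 to 0.484 with a library left out, and was -0.0114 without d6 PGCLC replicate 1, -0.0960 without the female E12.5 PGC library and -0.198 without photoreceptor precursor replicate 2. The causes were not tested. For the Ehmt1 germ-lineage region, the other merging distances, the wider window and leaving out a library, chosen after seeing the data, could not remove it by their construction and say nothing about its stability. A stricter peak threshold was not run, as the lists hold no score, and unknown read depth limits every count.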
